A study of Homo sapiens with 4 samples.

Results

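The passage from G1 to S phase was followed in HCT116 cells through 10 of its regulators, which were CDK2, CDK4, CDK6, CCND3, CCNE1, CCNE2, CDKN1B, RB1, E2F1 and SKP2. They were chosen by gene symbol for their known roles, with earlier results of these data known, out of 19974 gene rows in each library. All 10 were found in the tables, and all 10 passed the filter on low values, as did 11222 genes in total. HCT116 is a human colon cancer cell line. The cells received either a non-targeting siRNA (si-NC) or an siRNA against the long noncoding RNA LINC00152 (si-152), in both cases at 100 nM and for 36 h, before total RNA was sequenced. Each group held 2 biological replicates of the same line, so the 4 libraries describe 1 line under 1 transfection protocol. LINC00152 was not analysed here, and its knockdown was therefore not checked in these libraries. The question addressed is whether suppression of LINC00152 goes with a change in the transcripts of the G1/S machinery.

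In G1 the D-type cyclins bind CDK4 and CDK6 and begin the phosphorylation of the retinoblastoma protein RB1, which holds E2F transcription factors in check. E2F then drives cyclin E, cyclin E activates CDK2, and CDK2 completes the inactivation of RB1. The inhibitor p27, encoded by CDKN1B, binds cyclin E-CDK2, and SKP2 is the substrate receptor of the ubiquitin ligase that marks p27 for destruction. Much of this control acts on proteins, through phosphorylation and degradation, and is not read by RNA levels.

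The values are FPKM, fragments scaled to transcript length and to the size of the library, which allows levels of different genes to be compared. Their sums were between 424754 and 534311 per library, and between 14589 and 14686 genes were above 0. The number of reads behind a library is unknown, because FPKM carry no counts. Values under 0.1 FPKM showed no common step between libraries from which relative depth could be read. Differences between si-152 and si-NC were fitted on log2(FPKM + 1) with limma over all 11222 genes, and a fold change on this scale understates that of genes at low levels. The study's thresholds, a fold change over 1.5 and p below 0.05 before adjustment, defined a call, and 1.66% of all genes were called (67 higher and 119 lower). The epithelial markers EPCAM, KRT8, KRT18, CDH1 and CLDN3 were at 12.7 FPKM or more in every library, and CDH17 and VIL1 were at or near 0. The summed level of these 7 markers was 2030 to 2180 FPKM in si-NC and 1510 to 1870 FPKM in si-152, and the part of this difference in the results was not tested. Most of the sum was KRT8 (1050 and 1140 FPKM in si-NC, 718 and 912 in si-152) and KRT18 (697 and 760 in si-NC, 567 and 667 in si-152). EPCAM, CDH1 and CLDN3 overlapped between the groups. Of 8 markers of leukocytes, fibroblasts and endothelium, COL1A1 was at 7.02 to 7.98 FPKM and the others were at 0.357 FPKM or less, with PTPRC, COL1A2 and DCN at 0 in all 4 libraries.

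The 10 regulators spanned a wide range of levels. CDK4 stood highest, at 99.9 ± 3.80 FPKM (SD, n = 4 libraries), above 94.2% of the tested genes. CDKN1B followed at 31.3 ± 3.44 FPKM and CDK2 at 24.8 ± 2.23 FPKM. The ranges of these first genes did not overlap with each other or with the next. CCNE1, at 13.5 ± 2.42 FPKM, and CCND3, at 12.1 ± 1.34 FPKM, overlapped in range, and CCNE1 was the higher in 3 of 4 libraries. RB1 was at 7.74 ± 1.92 FPKM, below CCND3 in every library. RB1, E2F1, SKP2, CDK6 and CCNE2 then formed a run in which each overlapped with its neighbour. Their means were 7.74, 6.69, 5.66, 4.78 and 3.92 FPKM, and RB1 exceeded E2F1 in 2 of 4 libraries only, as CDK6 did CCNE2. Neighbours in this run did not differ beyond the spread between libraries. Its ends did, since the lowest RB1 value, 5.74 FPKM, was above the highest CCNE2 value, 5.00 FPKM.

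**Figure D1:**
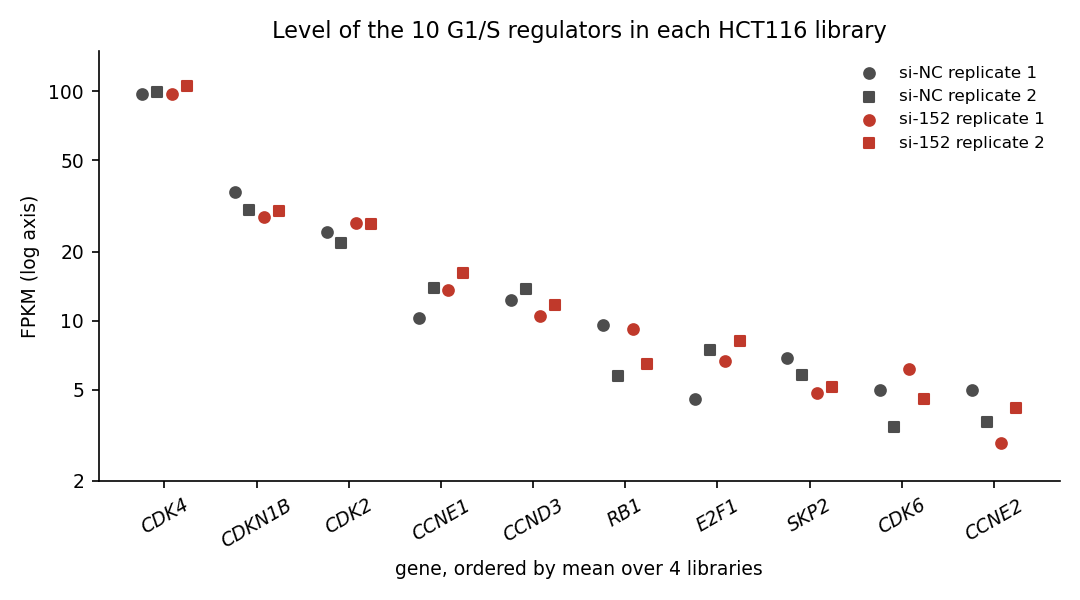
Level of each of the 10 regulators in each library, in FPKM on a log axis, with genes ordered by their mean over 4 libraries; grey symbols are si-NC, red symbols si-152, circles replicate 1 and squares replicate 2. CDK4 sits near 100 FPKM in all 4 libraries, and the last 5 genes lie between 2.91 and 9.55 FPKM, each overlapping with the next.

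The cyclin D-dependent kinases were represented almost wholly by CDK4. CDK4 (chromosome 12, 57747727 to 57756013, minus strand, GRCh38) was at 97.5 and 99.2 FPKM under si-NC and at 97.6 and 106 FPKM under si-152. The groups overlapped, and the level was nearly the same in all 4 libraries. Its fitted log2 difference was 0.05, with a 95% interval from -0.34 to 0.43, so that a 1.5-fold change in either direction lies outside the interval. CDK4 shares 1078 exon bases with TSPAN31 on the opposite strand, and the strandedness of the counting is not given in the sources used here. TSPAN31 was at 10.0 to 12.3 FPKM.

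CDK6 (chromosome 7, 92604921 to 92836594, minus strand), the other partner of D-type cyclins, was at 5.00 and 3.43 FPKM under si-NC and at 6.14 and 4.56 FPKM under si-152. It was higher in si-152 within both same-numbered pairs, by 0.25 and 0.33 on the log2(FPKM + 1) scale, but si-152 replicate 2 lay below si-NC replicate 1. The fitted difference was 0.29 (SE 0.23, 95% interval -0.22 to 0.80), and did not pass the test. It depended on single libraries, at 0.07 without si-NC replicate 2 and 0.51 without si-NC replicate 1. CDK4 made up 94.1% to 96.7% of the summed FPKM of CDK4 and CDK6 in each library.

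CDK6 was the only regulator of the 10 whose 3′-UTR held a match to the seed of miR-185-3p, which is shown because the study proposes that LINC00152 binds this microRNA. The mature microRNA comes from chromosome 22, 20033188 to 20033209, plus strand (RefSeq, GRCh38.p14), and its seed, bases 2 to 8, is in capitals. The CDK6 site lies in exon 8 of 8, within a 3′-UTR of 10219 bases (GENCODE v29), at chr7:92611891-92611919 on the minus strand, and the capitals mark the 7-base complement of the seed.
hsa-miR-185-3p: aGGGGCUGgcuuuccucugguc
CDK6 site: tggggccatttCAGCCCCctgtattctca
The word CAGCCCC was searched in the sense strand of the longest annotated 3′-UTR of each gene and was present in 21.8% of 10757 tested genes, or 2344. These had a median log2 difference of 0.06, against 0.0097 for the genes without it. The 2 sets of genes were not matched for 3′-UTR length, and this contrast was not tested. The median of all tested genes itself ranged from -0.036 to 0.074 with 1 library left out. The 3′-UTRs of the other 9 regulators ran from 531 to 2288 bases and did not hold these letters. The match is a description of sequence and not evidence of binding. The mature sequence of miR-632, the other microRNA of the study, was not used here.

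CCND3 (chromosome 6, 41934933 to 42050357, minus strand), a D-type cyclin, was at 12.3 and 13.7 FPKM under si-NC and at 10.5 and 11.7 FPKM under si-152. Both si-152 libraries lay below both si-NC libraries, and the difference was alike in the pairs, at -0.22 and -0.20. The fitted value was -0.21 (SE 0.18, 95% interval -0.61 to 0.19), and the gene did not pass the limma test. CCND3 was a minor D-type cyclin, at 5.63% to 7.28% of the summed FPKM of CCND1, CCND2 and CCND3. CCND1 was at 206 and 174 FPKM under si-NC and at 169 and 162 FPKM under si-152, with a log2 difference of -0.20 (SE 0.19). CCND2 was listed at 0.0182 FPKM in si-NC replicate 1 and at 0 in the other libraries. The summed level of the D-type cyclins was 219 and 188 FPKM under si-NC and at 179 and 174 FPKM under si-152, so that the groups did not overlap.

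The E-type cyclins had fitted differences of opposite sign. CCNE1 (chromosome 19, 29811898 to 29824308, plus strand) was at 10.3 and 13.9 FPKM under si-NC and at 13.5 and 16.2 FPKM under si-152. The groups overlapped by a narrow margin, and si-152 was higher within both pairs, by 0.36 and 0.20. The fitted log2 difference was 0.28 (SE 0.20, 95% interval -0.16 to 0.73). It was 0.08 without si-NC replicate 1 and 0.48 without si-NC replicate 2.

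CCNE2 (chromosome 8, 94879770 to 94896678, minus strand), the second E-type cyclin, was at 5.00 and 3.61 FPKM under si-NC and at 2.91 and 4.16 FPKM under si-152. The groups overlapped and the pairs disagreed in direction, with -0.62 in pair 1 and 0.16 in pair 2. The fitted difference was -0.23 (SE 0.23, 95% interval -0.74 to 0.28), and -0.028 without si-152 replicate 1. CCNE2 shares 1629 exon bases with INTS8 on the opposite strand, and INTS8 was at 16.5 to 21.4 FPKM, several times the level of CCNE2, so reads from that gene cannot be told apart from its own without strand.

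CDK2 (chromosome 12, 55966769 to 55972784, plus strand), the kinase that cyclin E activates, was at 24.4 and 21.7 FPKM under si-NC and at 26.6 and 26.3 FPKM under si-152. Both si-152 libraries lay above both si-NC libraries, and the si-152 replicates were close together. The fitted difference was 0.19 (SE 0.16), and its 95% interval from -0.18 to 0.56 stayed within a 1.5-fold change. Of the members, CDK2 was the only one higher in si-152 without overlap.

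CDKN1B (chromosome 12, 12715058 to 12722371, plus strand), which encodes p27, was at 36.2 and 30.3 FPKM under si-NC and at 28.3 and 30.1 FPKM under si-152. The groups did not overlap, but si-NC replicate 2 and si-152 replicate 2 were nearly equal, and the pairs gave -0.34 and -0.0073. The fitted difference was -0.18 (SE 0.17, 95% interval -0.56 to 0.21). The lower level in si-152 came from pair 1 and did not pass the test, and without si-NC replicate 1 the difference was -0.05. CDKN1A, which encodes the related inhibitor p21, was at 164 and 156 FPKM under si-NC and at 140 and 142 FPKM under si-152 (log2 difference -0.18, SE 0.18), also without overlap. CDKN1C, which encodes p57, was at 3.52 and 1.39 FPKM under si-NC and at 0.359 and 2.02 FPKM under si-152, with opposite directions in the pairs. It was called lower without si-NC replicate 2 (-1.16) and without si-152 replicate 2 (-1.28), and not with all 4 libraries. CDKN2A has an inhibitor of CDK4 and CDK6 among its products, which values per gene do not separate. It was at 80.5 and 72.4 FPKM under si-NC and at 52.6 and 74.6 FPKM under si-152, and its groups overlapped.

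SKP2 (chromosome 5, 36151989 to 36184319, plus strand) was at 6.87 and 5.78 FPKM under si-NC and at 4.85 and 5.16 FPKM under si-152. Both si-152 libraries were lower than both si-NC libraries, with -0.43 in pair 1 and -0.14 in pair 2. The fitted difference of -0.28 (SE 0.19, 95% interval -0.71 to 0.15) had the smallest limma p of the 10 regulators and did not pass the test. CKS1B, the cofactor that SKP2 needs to bind p27, was at 185 and 186 FPKM under si-NC and at 131 and 168 FPKM under si-152, with a log2 difference of -0.32 (SE 0.20). Of the other subunits of this ligase, SKP1 had a log2 difference of -0.14, RBX1 of -0.15 and CUL1 of 0.18, all with overlapping groups.

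RB1 (chromosome 13, 48303726 to 48599436, plus strand), the pocket protein that restrains E2F, was at 9.55 and 5.74 FPKM under si-NC and at 9.22 and 6.46 FPKM under si-152. Replicate 1 was high and replicate 2 low in both groups, so the groups overlapped almost fully. The fitted difference was 0.05 (SE 0.25), with a wide 95% interval from -0.52 to 0.62. RB1 made up 44.6% to 55.6% of the summed FPKM of RB1 and its relatives RBL1 and RBL2. RBL1 was at 1.97 and 1.46 FPKM under si-NC and at 2.71 and 1.91 FPKM under si-152. RBL2 was at 5.67 and 4.29 FPKM under si-NC and at 6.14 and 6.10 FPKM under si-152, without overlap (log2 difference 0.26, SE 0.20).

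E2F1 (chromosome 20, 33675683 to 33686404, minus strand), an activating E2F and itself an E2F target, was at 4.56 and 7.44 FPKM under si-NC and at 6.64 and 8.13 FPKM under si-152. Both pairs were higher in si-152, by 0.46 and 0.11, but si-152 replicate 1 lay below si-NC replicate 2. The fitted difference was 0.29 (SE 0.24, 95% interval -0.24 to 0.81). The value rested on si-NC replicate 1, the lowest library for this gene, and without it the difference was -0.0148. Without si-NC replicate 2 it was 0.587, just beyond 1.5-fold. E2F1 was called higher in that fit, which rests on a lone si-NC library, and not with all 4 libraries. E2F3, another activator, was at 12.4 and 10.9 FPKM under si-NC and at 13.4 and 12.6 FPKM under si-152 (log2 difference 0.15). E2F2 was at 0.322 FPKM or less in every library. E2F4, which acts mainly as a repressor, was at 53.1 and 45.4 FPKM under si-NC and at 53.6 and 59.6 FPKM under si-152 (log2 difference 0.20).

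The promoter of E2F1 is shown because E2F factors are known to act on it. The stretch covers bases 39 to 11 before the RefSeq start site, at chr20:33686396-33686424 on the minus strand (GRCh38.p14). The GENCODE gene starts within it, at base 33686404, so the last word (33686398 to 33686405) lies mostly inside that gene. The capitals mark 3 matches to E2F words, the first 2 of which overlap.
E2F1 promoter: tcTTTCGCGGCAAAaaggaTTTGGCGCgt
The words searched, on both strands, were TTTCGCGC, TTTCGCGG, TTTGGCGC, TTTGGCGG, TTTCCCGC, TTTCCCGG, TTTGCCGC and TTTGCCGG. At least 1 of these 8 words was present in 6.19% of 35116 promoters of the same length, from 250 bases before to 50 after the start, and 2 or more matches were present in 0.379%. Of the 10 regulators, 8 had a promoter in the table, and E2F1 alone held a match. Counted by gene, this is 12.5% of the 8, near the 12.8% of 8656 tested genes with a promoter. The promoters of CCNE1, CCND3, CDK4, CDK6, CDKN1B, SKP2 and RB1 did not hold these letters in this window. For RB1, CDKN1B, CDK4 and CCND3 the windows lie inside the GENCODE gene, and its outermost start was not searched. The RB1 window starts at base 48476200 and the GENCODE gene at base 48303726. CDK2 and CCNE2 were not matched to the table.

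Across the 10 regulators, 6 fitted differences were above 0 and 4 below, with a median of 0.05 on the log2 scale against 0.02 for all tested genes. Without si-NC replicate 2 these medians turned to -0.041 and -0.036. They ran from -0.28 for SKP2 to 0.29 for CDK6. Of the 10, 0 were called and 0 had an unadjusted p under 0.05 by limma, a share that 4.38% of all genes reached. The limma adjusted p over all genes was 1.00 for each, and 0.0178% of all genes had an adjusted p under 0.05. The groups did not overlap for 4 of the 10, with CDK2 higher and CCND3, CDKN1B and SKP2 lower, against 30.4% of all tested genes. This share of members is near the background. With quantile normalization CDK4 was added to these 4 genes, and with size factors the list was the same. The direction was the same in both pairs for 8 of 10, against 63.0% of all tested genes, the exceptions being CCNE2 and RB1. The 8 include CDK4, with a difference of only 0.0023 in pair 1, and CDKN1B, with only -0.0073 in pair 2.

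**Figure D2:**
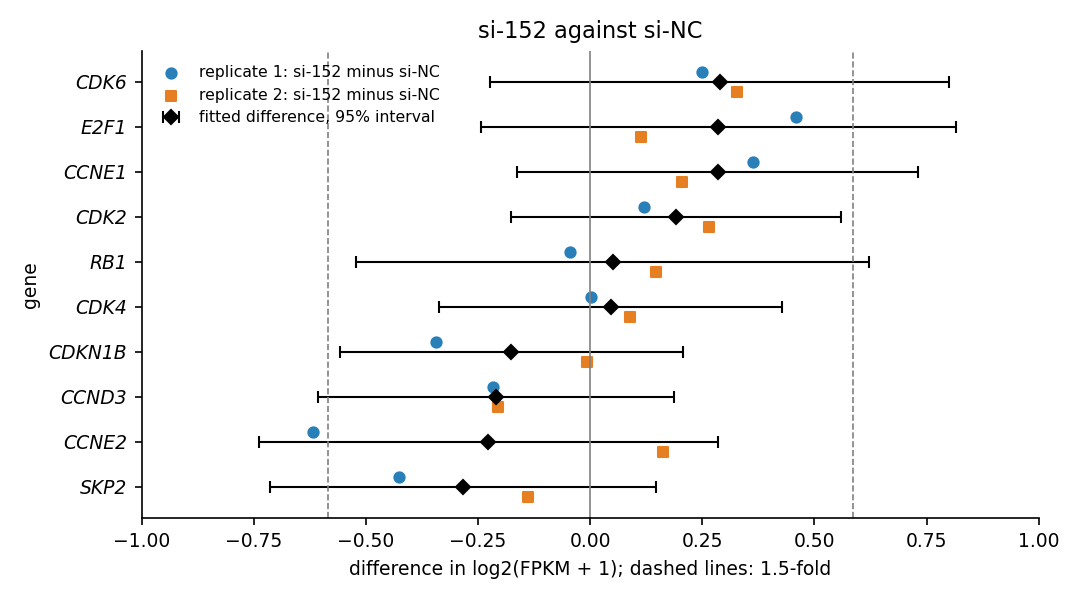
Difference between si-152 and si-NC for each regulator on the log2(FPKM + 1) scale; diamonds and bars are the limma estimate and its 95% interval, circles and squares the differences within replicate 1 and replicate 2, and dashed lines a 1.5-fold change. All 10 intervals include 0, and only those of CDK2, CDK4 and CDKN1B lie within a 1.5-fold change in both directions.

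A missed threshold does not show that the levels were equal. The 95% interval lay within a 1.5-fold change in both directions for CDK2, CDK4 and CDKN1B, 3 of the 10, against 48.5% of all tested genes. For CDK6, CCNE1, E2F1 and RB1 an increase of 1.5-fold remained inside the interval, and for CCND3, CCNE2 and SKP2 a decrease of that size did. These 7 genes are the ones with the lower levels. Where groups of 2 are compared for a single value, an exact two-sided permutation test cannot give a p below 0.333.

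Replicates differed about as much as the siRNA groups did. Between replicate 2 and replicate 1, RB1 differed by -0.65 in si-NC and -0.45 in si-152, and CDK6 by -0.44 and -0.36. E2F1 differed the other way, by 0.60 and 0.26, and so did CCNE1, by 0.40 and 0.24. For 7 of the 10 regulators the replicate difference had the same sign in both groups, against 73.6% of all tested genes. The mean replicate difference, with its sign kept, was larger in size than the siRNA difference for 5 of the 10, against 63.1% of all tested genes. These 5 were RB1, CDK6, E2F1, CCNE1 and CDK4. Replicate differences of opposite sign cancel in this mean. CCNE2 is therefore not counted, although it differed by -0.38 in si-NC and 0.40 in si-152. Each of these values was larger in size than its siRNA difference of -0.23.

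**Figure D3:**
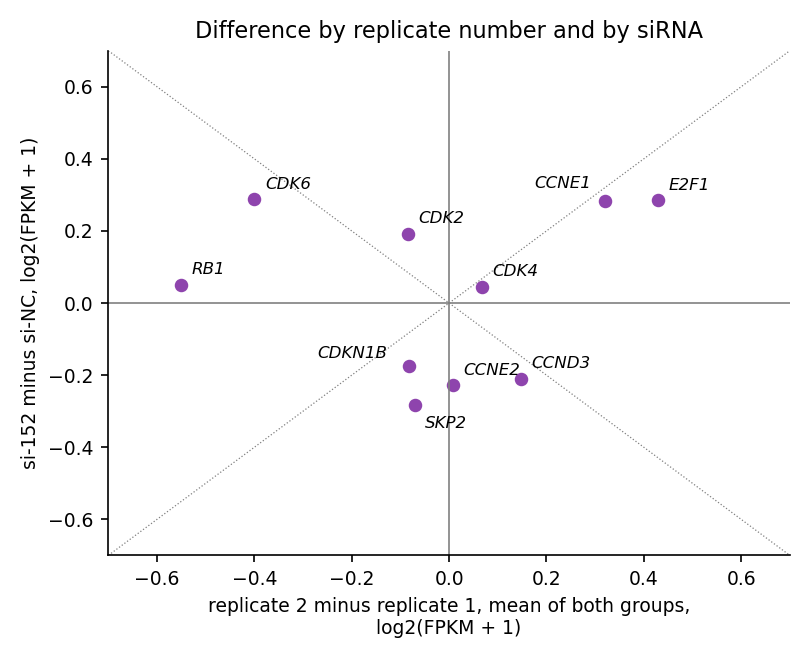
For each regulator, the difference between replicate 2 and replicate 1 (x axis, mean of both groups) against the difference between si-152 and si-NC (y axis), both on the log2(FPKM + 1) scale; dotted diagonals mark equal size. RB1 lies far to the left near a y value of 0.05, whereas SKP2, CCNE2 and CDKN1B lie below the x axis close to the vertical axis. For these last genes the replicate differences had opposite signs in si-NC and si-152 and cancel in the mean, as for CCNE2 (-0.38 and 0.40).

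Ratios between regulators within a library do not depend on scaling. The ratio of CCNE1 to CCNE2 was 2.06 and 3.85 in si-NC and 4.65 and 3.89 in si-152. Both si-152 libraries were higher, though si-NC replicate 2 and si-152 replicate 2 were nearly equal. The ratio of CDK2 to CDKN1B was 0.673 and 0.718 in si-NC and 0.937 and 0.874 in si-152. This kinase-to-inhibitor ratio was separated between the groups by more than the spread within either. A separation had to follow, since CDK2 was higher and CDKN1B lower without overlap, so it adds no result to theirs. CDKN1B to SKP2 was 5.28 and 5.24 in si-NC and 5.84 and 5.84 in si-152, since both genes were lower in si-152 and SKP2 by more. E2F1 to RB1 was 0.478 and 1.30 in si-NC and 0.720 and 1.26 in si-152, and was split by replicate and not by siRNA. CDK4 to CDK6 was 19.5 and 28.9 in si-NC and 15.9 and 23.1 in si-152, with overlap. These ratios were chosen after the levels were known and are given without a test.

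**Figure D4:**
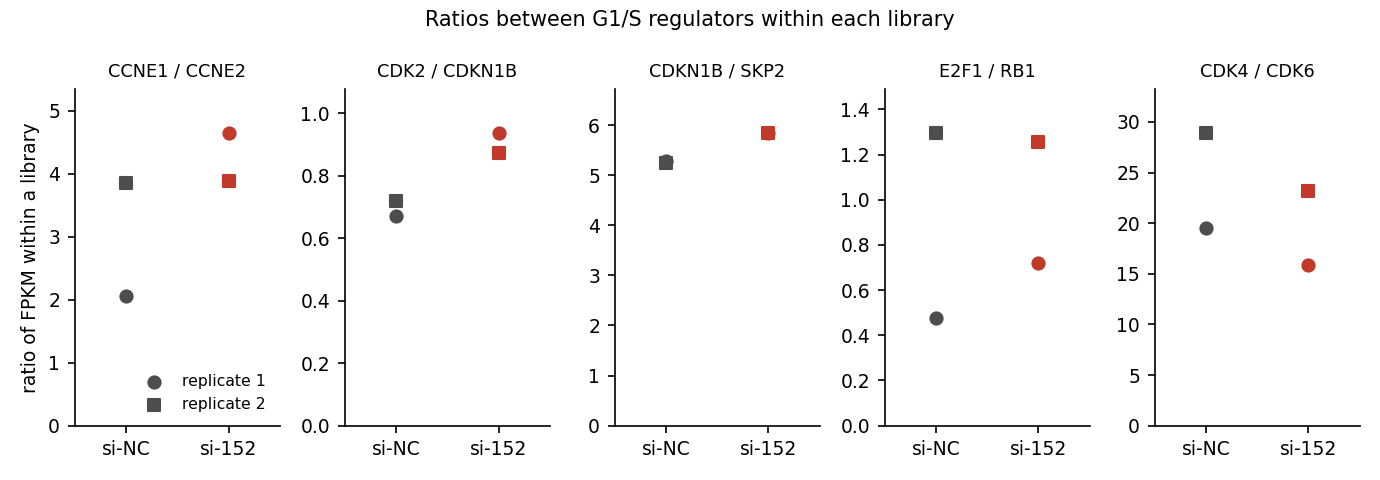
Ratio of FPKM between regulators within each library, on axes from 0, for si-NC (grey) and si-152 (red), with circles for replicate 1 and squares for replicate 2. CDK2 / CDKN1B lies between 0.673 and 0.718 in si-NC and between 0.874 and 0.937 in si-152, whereas E2F1 / RB1 separates replicate 1 from replicate 2 in both groups.

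The rest of the G1/S machinery was read from a list of 34 other regulators, of which 32 were tested (CCND2 and E2F2 were below the filter). Of these, 18 had a positive and 14 a negative difference, with a median of 0.05. By limma, 1 was called, CCNH, lower in si-152, against 1.06% of all genes called lower. An unadjusted p under 0.05 by limma was reached by 2, against 4.38% of all genes. The list was chosen with earlier results of these data known, so these counts are not independent of the data. CCNH, the cyclin of the CDK-activating kinase that phosphorylates CDK2 and CDK4, was at 47.9 and 49.99 FPKM under si-NC and at 21.3 and 28.8 FPKM under si-152. Both pairs were lower, by -1.13 and -0.77, and the fitted difference was -0.95 (SE 0.19, limma adjusted p = 0.373). CCNH thus passed the thresholds of the study and did not pass adjustment over all genes. Its partners were measured as well, CDK7 and MNAT1 being named after their values were seen. CDK7, the kinase subunit, was listed at 9.23 and 1.40 FPKM under si-NC and at 25.7 and 1.41 FPKM under si-152, so that both replicates 1 lay far above both replicates 2. With 1 library left out its call turned with the library, at 2.43 without si-152 replicate 2, 1.74 without si-NC replicate 1 and -1.04 without si-152 replicate 1. MNAT1, the assembly factor, was at 31.6 and 30.7 FPKM under si-NC and at 26.3 and 34.8 FPKM under si-152 (log2 difference -0.04).

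CCNA2, the cyclin that takes over CDK2 in S phase, was the other gene with an unadjusted p under 0.05. It was at 32.2 and 28.8 FPKM under si-NC and at 24.4 and 21.6 FPKM under si-152. The pairs gave -0.39 and -0.40 and the fit -0.39 (SE 0.17, limma adjusted p = 1.00). It no longer passed that threshold with any 1 library left out, with the difference between -0.48 and -0.31, or without the variance trend.

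A list of 38 known E2F targets with roles in S phase was mixed in direction. All 38 were tested, 21 were positive and 17 negative, the median was 0.05, 0 were called and 0 had an unadjusted p under 0.05 by limma. Their medians in the pairs were -0.11 and 0.18. The largest decreases in value were those of TK1, thymidine kinase, at -0.33 (SE 0.17), and UNG, uracil-DNA glycosylase, at -0.27 (SE 0.19). TK1 was at 126 and 132 FPKM under si-NC and at 99.3 and 106 FPKM under si-152. The largest positive values were those of POLA2, a subunit of DNA polymerase alpha, at 0.27 (SE 0.19), and DNMT1, the maintenance methyltransferase, at 0.26 (SE 0.24). Without si-NC replicate 1 DNMT1 was called higher, at 0.60.

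**Figure D5:**
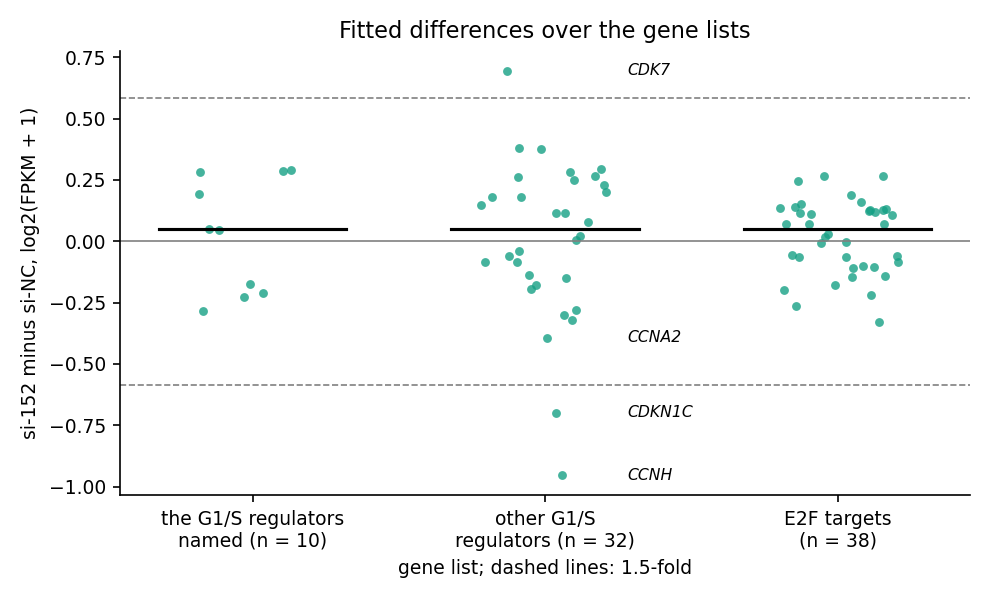
Fitted log2 difference between si-152 and si-NC for the 10 regulators, the 32 other G1/S regulators tested and the 38 E2F targets; each point is a gene, the black bar is the list median and dashed lines mark a 1.5-fold change. The medians all lie at 0.05 with 4 libraries and between -0.041 and -0.071 without si-NC replicate 2, and CCNH (-0.95), CDKN1C (-0.70) and CDK7 (0.69) lie beyond 1.5-fold, of which CCNH alone passed the test with all 4 libraries.

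Likeness of pattern was measured as the root-mean-square difference between the log2(FPKM + 1) values of genes, each centred on its own mean, over 4 libraries and 79 candidates from the members and both lists. E2F1 and CCNE1 were each nearest to the other, at 0.07. SKP2 was nearest to CDKN1B, at 0.06, and CDKN1B to CCND1, at 0.05. CDK6 was nearest to RBL1, at 0.06, and RB1 to CASP8AP2, at 0.08, which are genes high in replicate 1 of both groups. CDK2 was nearest to E2F3 (0.03), CCND3 to RRM1 (0.05), CDK4 to TIPIN (0.03) and CCNE2 to CDKN2A (0.09). The measure is small for any gene that varies little. In all of these values, a lower level per cell and a smaller share of cells in the phase that expresses a gene cannot be told apart, since RNA was taken from whole cultures.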

How the data were processed

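Total RNA of HCT116 cells was sequenced in 4 libraries, 2 of si-NC and 2 of si-152, grouped by the sample titles. Each library has its own table of gene symbols and values as the authors deposited it, read as FPKM from the values, since the unit is not named. The submitters' processing notes name Trimmomatic, TopHat, HISAT2, HTSeq and DESeq and the build GRCh38, without versions. The tool behind the FPKM and the annotation are not given in the sources used here. Spreadsheet dates replaced 28 symbols, and 2 symbols were repeated. No scaling was applied. A gene was tested if 2 or more libraries reached 1 FPKM. The test was that of limma 3.58.1 (R 4.3.3) on log2(FPKM + 1), unpaired, with a trend of variance on mean level and with Benjamini-Hochberg adjustment over 11222 genes. The test was checked on simulated data, in which changes were larger than those of the 10 members and replicates had no shared effect. The check does not bear on differences as small as theirs. FPKM carry no counts, so no count test and no counting interval could be used. Confidence intervals are limma's, and its p-values set the group difference against the spread between replicates, moderated with that of all genes tested. Loci and 3′-UTRs came from GENCODE v29, and promoters and the microRNA from RefSeq; 8656 of 11222 tested genes had a promoter. Tables were handled with Python 3.11.15, numpy 2.4.6, pandas 2.3.3 and matplotlib 3.10.9. The members and gene lists were chosen with earlier results of these data known. Named genes were the 10 members, fixed relatives and partners of them (CCND1, CCND2, CDKN1A, CDKN1C, CDKN2A, RBL1, RBL2, E2F2, E2F3, E2F4 and CKS1B), list genes with p below 0.05 before adjustment, the 2 highest and 2 lowest E2F targets, and for each member the gene nearest to it in pattern. CDK7, MNAT1, SKP1, RBX1, CUL1 and the overlapping genes were added after values were seen. Alternatives covered the pseudocount, filter, scaling, pairing, variance trend and each library left out.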

Additional observations from a re-analysis of the deposited data

How the results depend on the processing

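Of the 10 regulators, 0 had an unadjusted p under 0.05 by limma with a pseudocount of 0.1, no filter, 1 FPKM required in every library, size factors, quantile normalization or no variance trend, and 0 to 1 did with 1 library left out. The replicate numbers could not be shown to pair the libraries, which share only a number. Deviations of same-numbered libraries correlated at 0.52 across genes. With the replicate number as a block, 2 of the 10 had an unadjusted p under 0.05, CDK6 and CCNE1, with limma adjusted p of 0.269 and 0.253. The block raised genes at an unadjusted p under 0.05 from 492 to 1893, adjusted calls from 2 to 78, other regulators called from 1 to 2, other regulators at an unadjusted p under 0.05 from 2 to 8, and E2F targets from 0 to 2. CCNH was called under every alternative, and its adjusted p by limma lay between 0.000398 (without si-152 replicate 2) and 0.907 (no filter). Without a filter there were 796 genes and 1 E2F target at an unadjusted p under 0.05. Adjusted calls numbered 1 with a pseudocount of 0.1, no filter, size factors, quantile normalization or no trend, and 0 with 1 FPKM in every library. Without the trend, 1 other regulator had an unadjusted p under 0.05. With each library left out, genes called ranged from 242 to 546 (112 to 231 higher and 106 to 377 lower), genes at an unadjusted p under 0.05 from 310 to 724, adjusted calls from 45 to 78, other regulators called from 2 to 3 and at an unadjusted p from 2 to 6, and E2F targets called or at an unadjusted p from 0 to 1. Each such fit assumes that the lone library varies like the others. The sign turned in these fits for CDK4 (-0.0099 to 0.10), RB1 (-0.27 to 0.37), E2F1 (-0.0148 to 0.59), CDK7 (-1.04 to 2.43) and DNMT1 (-0.072 to 0.60), with values of -0.18 for RB1 without si-152 replicate 1 and -0.35 for CDK7 without si-NC replicate 2. The median log2 difference ranged from -0.041 to 0.074 for the 10 regulators, from -0.062 to 0.20 for the other regulators and from -0.076 to 0.094 for the E2F targets; all 3 were below 0 without si-NC replicate 2 (-0.071 for the E2F targets), and that of the E2F targets also without si-152 replicate 2. The causes were not tested.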

Other observations

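Of the 38 E2F targets, 32 had a promoter in the table, and 18 of these (56.2%) held at least 1 of the 8 E2F words, against 12.8% of the 8656 tested genes with a promoter. The 18 genes with a word had a median log2 difference between si-152 and si-NC of 0.12, from -0.27 to 0.27, and the 14 without one had a median of -0.06, from -0.33 to 0.13. The ranges overlapped, the split was made after the values were known, and it was not tested. Of the other G1/S regulators, 10 of 29 with a promoter held a word.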
